A study of Mus musculus with 50 samples.

Results

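The Sox and T-box transcription factors of mouse embryonic stem cells (ESCs) are described here as 28 of the 18055 genes of an RNA-seq table: 16 *Sox* genes and 12 T-box genes. They were taken by name (*Sox* or *Tbx* with a number, *Tbr1* and *Mga*). *Sox2*, *Sox7* and *Sox17* were left out, and *T* and *Eomes* are T-box genes that the names did not take in. RNA-seq covered 4 ESC lines with 2 libraries each. Peak lists of SUZ12 and H3K27me3 covered 5 lines, those of H3K27ac covered the 4 mutant lines, and each list came from 1 library.

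All lines derive from E14TG2a, a mouse ESC line (WT), and were grown with LIF and inhibitors of GSK3β and MEK. *Ezh2* KO ESCs lacked the whole *Ezh2* gene through a CRISPR/Cas9 deletion. *Ezh1/2* dKO ESCs lacked *Ezh1* as well. *Ezh2* Y726D and *Ezh2* R685C ESCs carried point mutations of EZH2 knocked into *Ezh1* KO cells, so both lacked *Ezh1* too. The study reports that the Y726D mutation removed the catalytic activity of EZH2. By its account *Ezh2* Y726D and *Ezh1/2* dKO ESCs lost every form of H3K27 methylation, whereas EZH2 compensated for the loss of *Ezh1* alone. The first ChIP-seq samples named for the Y726D mutation do not mention the *Ezh1* knockout and were taken as the same line. Edited lines were derived as clones, and the clones behind each RNA-seq library are not given in the sources used here. Another list came from *Ezh1/2* dKO ESCs with HA-tagged EZH1, beside HA ChIP-seq of *Ezh1/2* dKO ESCs without it. The study asked what H3K27 methylation and the presence of PRC2 on chromatin each contribute to repression of Polycomb target genes.

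PRC2 is the Polycomb complex that methylates lysine 27 of histone H3. EZH2 or its paralog EZH1 is the enzyme, and SUZ12 is a core subunit that marks where the complex sits. H3K27me3 is the mark of repressed Polycomb targets, and H3K27ac, on the same lysine, accompanies active promoters and enhancers. Sox proteins bind DNA through an HMG box and T-box proteins through a T-box. Both families hold regulators of lineage choice: *Sox1*, *Sox3*, *Sox11* and *Sox21* in neural progenitors, *Sox8*, *Sox9* and *Sox10* in neural crest and cartilage, *Sox18* in endothelium, *Tbx5* and *Tbx20* in the heart, *Tbx4* and *Tbx5* in limb buds, *Tbx6* in paraxial mesoderm, *Tbx21* in T cells and *Tbr1* in cortical neurons. Most are kept silent in ESCs as Polycomb targets. *Tbx3* and *Mga* are exceptions: *Tbx3* belongs to the naive pluripotency network, and MGA, which carries a T-box and a bHLH domain, is a scaffold of a variant PRC1 complex.

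The promoters of *Tbx15*, *Sox21*, *Sox11* and *Sox8* are shown because these members passed the expression test in the most comparisons, with ties ordered by size of change. Each sequence is the 300 bases before the most upstream annotated transcription start site (TSS), read from the mm9 genome along the gene's strand. Capitals mark CpG dinucleotides, since PRC2 sites in ESCs lie largely in CpG-rich DNA. *Tbx15* lies at chr3:99044004-99044303 on the plus strand, *Sox21* at chr14:118636253-118636552, *Sox11* at chr12:28027575-28027874 and *Sox8* at chr17:25707632-25707931, the last 3 on the minus strand.
Tbx15: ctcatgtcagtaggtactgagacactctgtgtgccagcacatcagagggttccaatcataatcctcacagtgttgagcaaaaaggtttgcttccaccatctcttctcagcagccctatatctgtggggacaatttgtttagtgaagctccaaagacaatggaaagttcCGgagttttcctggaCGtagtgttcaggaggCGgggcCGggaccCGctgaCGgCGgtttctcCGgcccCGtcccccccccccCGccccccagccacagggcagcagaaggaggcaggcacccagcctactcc
Sox21: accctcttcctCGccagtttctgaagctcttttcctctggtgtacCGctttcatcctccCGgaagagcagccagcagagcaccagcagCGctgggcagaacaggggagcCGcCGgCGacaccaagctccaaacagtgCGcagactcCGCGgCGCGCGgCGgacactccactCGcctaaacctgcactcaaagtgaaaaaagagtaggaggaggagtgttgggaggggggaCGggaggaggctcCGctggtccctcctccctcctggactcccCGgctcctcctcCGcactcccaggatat
Sox11: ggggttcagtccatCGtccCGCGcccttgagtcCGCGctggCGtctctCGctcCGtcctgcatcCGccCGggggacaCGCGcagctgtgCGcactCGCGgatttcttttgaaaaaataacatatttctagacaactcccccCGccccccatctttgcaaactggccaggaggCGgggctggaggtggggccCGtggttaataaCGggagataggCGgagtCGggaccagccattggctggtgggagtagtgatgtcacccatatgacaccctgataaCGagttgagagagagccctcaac
Sox8: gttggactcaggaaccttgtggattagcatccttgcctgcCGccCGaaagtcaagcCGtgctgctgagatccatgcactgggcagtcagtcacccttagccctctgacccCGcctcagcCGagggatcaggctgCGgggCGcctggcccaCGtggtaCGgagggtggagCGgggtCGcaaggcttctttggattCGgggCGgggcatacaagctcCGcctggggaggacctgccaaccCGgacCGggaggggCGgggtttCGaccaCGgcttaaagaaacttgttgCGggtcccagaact

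All 4 windows touched a SUZ12 peak of WT ESCs and an H3K27me3 peak of *Ezh2* KO ESCs. Only the *Tbx15* window touched an H3K27me3 peak of WT ESCs. The strongest SUZ12 peak of *Tbx15* in WT lay outside its window, at chr3:99057050-99059405, near another of its 3 annotated TSSs (99057683). HA peaks of the line with HA-tagged EZH1 touched the *Tbx15* and *Sox8* windows and not those of *Sox21* and *Sox11*. *Sox8* also had an HA peak within 5 kb of a TSS in *Ezh1/2* dKO ESCs without the tag, so its HA peak cannot be assigned to EZH1. The *Sox21* and *Sox11* windows also touched an H3K27ac peak of *Ezh2* Y726D ESCs, and those of *Tbx15* and *Sox8* did not. The *Sox21* window overlaps an exon of the lincRNA gene *Gm4675*, and the *Sox8* window one of *2810468N07Rik*, both on the opposite strand. The shown windows held 10 (*Tbx15*), 19 (*Sox21*), 22 (*Sox11*) and 20 (*Sox8*) CpGs. Over the 27 members with a position in the annotation the median was 17.0 CpGs, with *Tbx5* at 0 and *Sox12* at 37, against a median of 13 over 17419 promoters of the table. The 21 members with a SUZ12 peak in WT ESCs had a median of 17.0 and the other 6 a median of 13.5. A Sox core motif (AACAAT, either strand) was found before 1 member, *Sox5*, and in 8.21% of all promoters. The T-box motif AGGTGTGA was found before none of the 27 and in 1.11% of all promoters.

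The targeted genes were checked first. *Ezh2* had 598 and 546 normalized read counts in the WT libraries, 1.05 and 0.968 in *Ezh2* KO, 0.824 and 1.78 in *Ezh1/2* dKO and 422 and 613 in *Ezh2* Y726D ESCs. *Ezh1* had 227 and 377 in WT, 372 and 378 in *Ezh2* KO, against 14 and 20.4 in *Ezh1/2* dKO and 24.1 and 15.7 in *Ezh2* Y726D ESCs, so both genes followed the labels. Libraries held 3604123 to 5181553 reads, and the *Ezh1/2* dKO libraries detected the most genes (17042 and 17104, against 15660 to 16399 in the other lines). The 8 ESC markers summed to between 11949 and 14926 normalized counts in every library, and none of them was called in any comparison by limma, edgeR or DESeq2 (0 to 1 had an unadjusted p under 0.05). The study describes its sequencing samples as biological replicates, but neither it nor the labels say whether the 2 libraries of a line came from separate cultures or clones, so p-values measure the spread between these libraries, which may be technical. That spread was unequal: the 2 libraries correlated at 0.953 in WT and *Ezh2* Y726D, 0.973 in *Ezh2* KO and 0.978 in *Ezh1/2* dKO. The limma fit shared 1 spread per gene over all lines. Fitted on the 4 compared libraries alone, genes called went from 377 to 32 for *Ezh2* Y726D against WT. They went from 496 to 1181 for *Ezh1/2* dKO against *Ezh2* KO.

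Per kb of exon, *Tbx3* was by far the most expressed member, with 365 normalized counts per kb averaged over the 8 libraries. *Mga* followed with 99.5 and *Sox15*, a Sox factor that shares the POU5F1 partner of SOX2 in ESCs, with 92.2. *Sox13* (23.1), *Sox11* (20.6), *Sox21* (18.8) and *Sox12* (16.5) formed the next tier, and the lowest 3 were *Tbx1* (0.2), *Tbr1* (0.166) and *Tbx22* (0.159). Of the 28 members, 16 reached a mean of 5 normalized counts and were tested: *Mga*, *Tbx3*, *Tbx4*, *Tbx5*, *Tbx15*, *Tbx18*, *Tbx20*, *Sox4*, *Sox5*, *Sox6*, *Sox8*, *Sox11*, *Sox12*, *Sox13*, *Sox15* and *Sox21*. Some of these passed through the lines in which they were high, so counts over the 16 do not describe all 28. Differences were tested with limma across all 13872 genes that passed, and a gene was called at a Benjamini-Hochberg adjusted p under 0.1 and a difference of 1 or more in either direction, on the scale of log2 of the normalized count plus 1.

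In *Ezh1/2* dKO ESCs, which lack both enzymes, 4 of the 16 tested members rose over WT and none fell: the T-box genes *Tbx15*, *Tbx20* and *Tbx5* and the neural gene *Sox21*. Of all genes tested 3.63% rose and 0.389% fell, 4.02% in all. *Tbx15*, a regulator of skeletal and skin development, was read at 1.33 and 5.78 normalized counts in WT, 20.9 and 15.5 in *Ezh2* KO, against 41.2 and 47.1 in *Ezh1/2* dKO and 36.6 and 25.7 in *Ezh2* Y726D ESCs. Every mutant library stood above both WT libraries, and both *Ezh1/2* dKO libraries stood above all others. The WT values of *Tbx15* stood on 1 and 6 reads only, and it passed the filter on low values through the mutant lines, in which it was high. The difference between *Ezh1/2* dKO and WT was 3.50 ± 0.57 (log2, SE, adjusted p = 0.0235, limma).

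*Tbx20*, a regulator of heart development, was read at 24.0 and 5.78 in WT, 6.27 and 29.0 in *Ezh2* KO, against 85.7 and 125 in *Ezh1/2* dKO and 35.7 and 110 in *Ezh2* Y726D ESCs. *Ezh2* KO overlapped WT, and the 4 libraries of *Ezh1/2* dKO and *Ezh2* Y726D lay above both and overlapped each other. The *Ezh1/2* dKO difference from WT was 3.01 ± 0.82 (adjusted p = 0.0974, limma). *Tbx5*, a regulator of heart and forelimb development, was read at 1.33 and 9.63 in WT, 4.18 and 6.77 in *Ezh2* KO, against 30.5 and 41.7 in *Ezh1/2* dKO and 17.8 and 13.4 in *Ezh2* Y726D ESCs. The *Ezh1/2* dKO libraries were highest, and the *Ezh2* Y726D libraries lay between them and the overlapping WT and *Ezh2* KO pairs. The WT values of *Tbx5* stood on 1 and 10 reads only. The *Ezh1/2* dKO difference from WT was 2.88 ± 0.72 (adjusted p = 0.0738, limma). *Sox21* was read at 36 and 45.3 in WT, 64.8 and 75.5 in *Ezh2* KO, against 148 and 123 in *Ezh1/2* dKO and 52.6 and 26.8 in *Ezh2* Y726D ESCs. *Ezh2* Y726D spanned the WT range, *Ezh2* KO lay above WT and *Ezh1/2* dKO above all, by 1.71 ± 0.37 over WT (adjusted p = 0.0477, limma). *Sox21* shares exonic bases with *Gm4675*, and counting without strand cannot separate the pair.

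**Figure D1:**
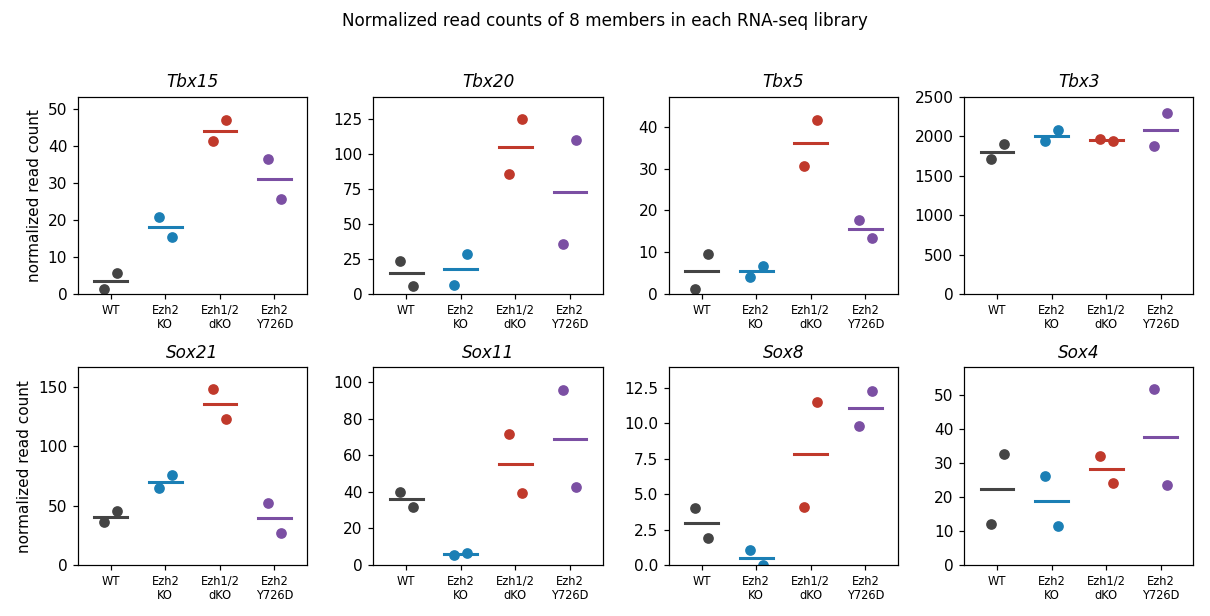
Normalized read counts (y axis, linear from 0) of 8 members in the 4 ESC lines, where points are the 2 libraries of each line and bars their mean. *Tbx15*, *Tbx20*, *Tbx5* and *Sox21* are highest in *Ezh1/2* dKO by their means, *Sox11* is lowest in *Ezh2* KO (5.23 and 6.77), and *Tbx3* and *Sox4*, which were not called, are shown for comparison.

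All 4 calls between *Ezh1/2* dKO and WT needed both *Ezh1/2* dKO libraries. Without replicate 1 of *Ezh1/2* dKO the adjusted p was 0.342 for *Sox21*, 0.171 for *Tbx15*, 0.342 for *Tbx20* and 0.327 for *Tbx5*, and without replicate 2 it was 0.292, 0.243, 0.465 and 0.421. Only 9 and 3 of all genes were then called. Leaving out replicate 1 of WT ended the calls of *Sox21* (adjusted p = 0.124) and *Tbx5* (0.170, with the difference at 1.79), and leaving out replicate 2 of WT that of *Tbx20* (0.217). *Tbx5* also lost its call without replicate 1 (0.108) or 2 (0.110) of *Ezh2* KO. edgeR and DESeq2 on the recovered reads each called the 4 genes. Of 12 other settings 6 ended the call of *Tbx20*: an adjusted p under 0.05, a pseudocount of 0.5, no filter, a mean of at least 20, quantile normalization and a replicate block. *Tbx5* lost its call at an adjusted p under 0.05, with no filter and with quantile normalization.

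Of the T-box members not called, *Tbx4*, a regulator of hindlimb and lung development, was read at 1.33 and 4.81 in WT, 1.05 and 4.84 in *Ezh2* KO, against 11.5 and 15.1 in *Ezh1/2* dKO and 6.24 and 13.4 in *Ezh2* Y726D ESCs. WT and *Ezh2* KO each stood on 1 and 5 reads, *Ezh1/2* dKO on 14 and 17 and *Ezh2* Y726D on 7 and 12. *Tbx4* passed the filter on low values only through *Ezh1/2* dKO and *Ezh2* Y726D, the lines in which it was high. The *Ezh1/2* dKO and *Ezh2* Y726D libraries lay above those of WT and *Ezh2* KO, and the *Ezh1/2* dKO difference from WT was 1.95 ± 0.76 (adjusted p = 0.216, limma). *Tbx18*, a regulator of somite and epicardium development, was read at 8 and 12.5 in WT, 0 and 6.77 in *Ezh2* KO, against 10.7 and 6.22 in *Ezh1/2* dKO and 8.92 and 23.5 in *Ezh2* Y726D ESCs, and the *Ezh1/2* dKO libraries overlapped WT. By position alone, both *Ezh1/2* dKO libraries lay above both WT libraries for 7 of the 16 tested members (5 T-box and 2 *Sox*) and below for 2 (*Sox12* and *Sox15*). Of all tested genes 28.0% lay above and 24.5% below.

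In *Ezh2* KO ESCs, which keep EZH1, none of the 16 tested members was called against WT by limma or edgeR, where 0.404% of all genes were (0.0937% higher and 0.310% lower). DESeq2 called 1, and 2 had an unadjusted p under 0.05: *Sox11*, a neural progenitor factor, and *Tbx15*. *Sox11* was read at 40.0 and 31.8 in WT, 5.23 and 6.77 in *Ezh2* KO, against 71.7 and 39.1 in *Ezh1/2* dKO and 95.4 and 42.5 in *Ezh2* Y726D ESCs. The *Ezh2* KO libraries, with 5 and 7 reads, lay below the other 6, with 30 to 107 reads. The difference from WT was -2.40 ± 0.49 (adjusted p = 0.125, limma, and 0.0359 by DESeq2). limma also called it without replicate 1 (adjusted p = 0.0765) or replicate 2 (0.0663) of *Ezh2* Y726D. *Tbx15* stood 2.26 ± 0.57 above WT (adjusted p = 0.213, limma), and without replicate 2 of WT it was called at 3.03 (0.0627). By position, 3 members lay above WT (*Sox21*, *Tbx15* and *Tbx3*) and 3 below (*Sox11*, *Sox8* and *Tbx18*), where 18.0% and 17.6% of all tested genes did.

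Comparing the lines that differ in *Ezh1*, *Sox11* rose from *Ezh2* KO to *Ezh1/2* dKO by 2.96 ± 0.49 (adjusted p = 0.0200, limma) and was the only member called, where 3.52% of all tested genes rose and 0.0577% fell (3.58% in all). The call was lost without replicate 1 of *Ezh2* KO (adjusted p = 0.132) and without replicate 1 (0.218) or 2 (0.104) of *Ezh1/2* dKO. In this comparison edgeR also called *Tbx5*, and DESeq2 *Tbx5* and *Tbx20*. For *Tbx20* (2.82 ± 0.82, adjusted p = 0.137) and *Tbx5* (2.53 ± 0.72, adjusted p = 0.125) limma fell short of its threshold.

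In *Ezh2* Y726D ESCs, where a mutant EZH2 is present and *Ezh1* is deleted, *Tbx15* rose over WT by 2.99 ± 0.57 (adjusted p = 0.0420, limma) and was the only one of the 16 called, where 1.66% of all tested genes rose and 1.06% fell (2.72% in all). It was called with each of the 8 libraries left out in turn. Fitted on the 4 compared libraries alone, its adjusted p was 0.216. *Tbx20* differed from WT by 2.29 ± 0.82 (adjusted p = 0.236, limma), and DESeq2 called it (0.0436). *Tbx5* differed by 1.73 ± 0.72 (adjusted p = 0.314, limma), and was called at 2.82 (0.0803) without replicate 2 of WT. By position, 6 members lay above WT (*Tbx4*, *Tbx5*, *Tbx15*, *Tbx20*, *Sox8* and *Sox11*) and 1 below (*Sox12*), where 19.0% and 18.1% of all tested genes did.

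*Ezh2* Y726D ESCs keep a mutant EZH2 protein that *Ezh1/2* dKO ESCs lack, and *Sox21* was the only member called between them. It was lower in *Ezh2* Y726D by -1.81 ± 0.37 (adjusted p = 0.0654, limma), where 0.187% of all tested genes were higher and 1.49% lower (1.68% in all). The call was lost without either *Ezh2* KO library (adjusted p = 0.119 and 0.118), without replicate 1 (0.444) or 2 (0.430) of *Ezh1/2* dKO, and without replicate 2 of *Ezh2* Y726D (0.221). Without replicate 1 of *Ezh2* Y726D, *Sox6* (-4.10) and *Sox15* (1.59) were called as well. *Tbx15* (-0.51, 95% interval -1.78 to 0.77) and *Tbx20* (-0.72, -2.57 to 1.14) were not called, and their intervals leave room for differences of either sign.

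Against *Ezh2* KO, *Ezh2* Y726D ESCs had higher *Sox11* (3.22 ± 0.49, adjusted p = 0.0163, limma) and higher *Sox8* (3.07 ± 0.74, adjusted p = 0.0738, limma), where 2.31% of all tested genes were higher and 1.21% lower (3.53% in all). *Sox8*, a neural crest and oligodendrocyte factor, was read at 4 and 1.93 in WT, 1.05 and 0 in *Ezh2* KO, against 4.12 and 11.5 in *Ezh1/2* dKO and 9.81 and 12.3 in *Ezh2* Y726D ESCs. It passed the filter on low values through the lines in which it was high. The *Sox8* call ended at an adjusted p under 0.05, with quantile normalization, on the 4 compared libraries and with a replicate block. The *Ezh2* KO values stood on 1 read in all and those of *Ezh2* Y726D on 22, a ratio of 21.7 with an exact 95% interval of 3.51 to 896 for counting error only. The *Sox8* call was lost without replicate 1 (adjusted p = 0.161) or 2 (0.325) of *Ezh2* KO, replicate 1 (0.117) or 2 (0.128) of *Ezh1/2* dKO, or replicate 2 of *Ezh2* Y726D (0.281). The *Sox11* call was lost only without replicate 1 of *Ezh2* KO (0.101). Without replicate 1 of *Ezh2* Y726D, *Sox6* (-3.52), *Sox15* (1.35) and *Sox21* (-1.35) were called too.

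**Figure D2:**
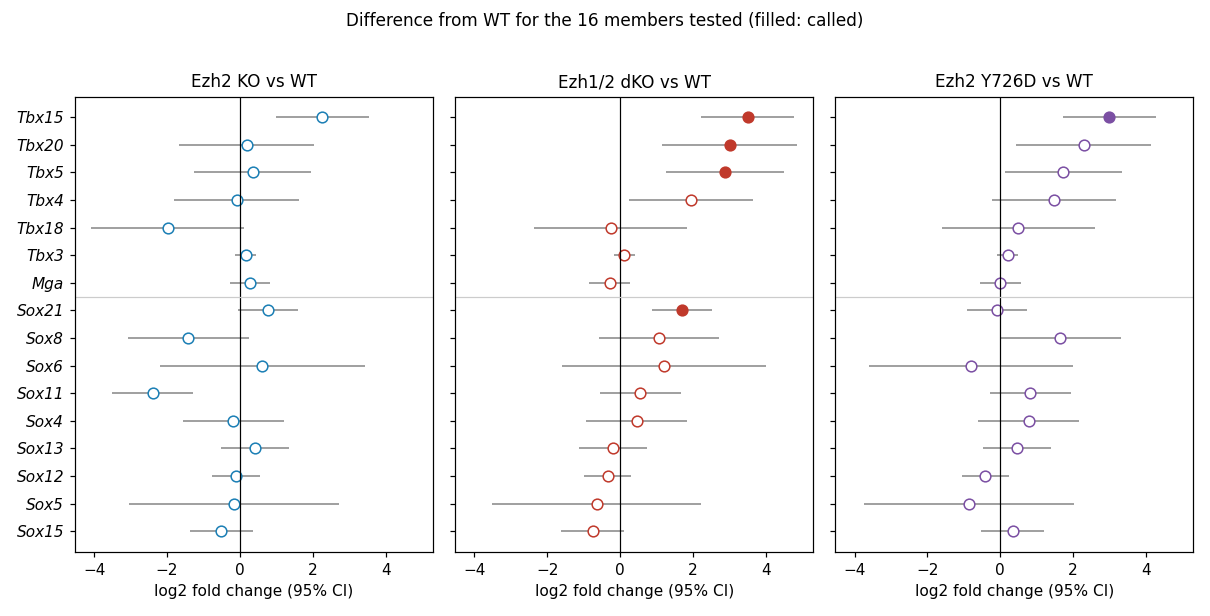
Log2 fold change from WT (x axis, points, with 95% confidence intervals of the limma fit as bars) for the 16 tested members in the 3 mutant lines with RNA-seq, T-box genes above the grey line and *Sox* genes below. Filled points were called: none in *Ezh2* KO, 4 in *Ezh1/2* dKO and *Tbx15* alone in *Ezh2* Y726D, and the 3 panels share the WT libraries.

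None of the most expressed members was called with all libraries in the fit. *Tbx3* was read at 1709 and 1895 in WT, 1932 and 2079 in *Ezh2* KO, against 1958 and 1944 in *Ezh1/2* dKO and 1879 and 2287 in *Ezh2* Y726D ESCs, and its largest difference from WT was 0.20 (95% interval -0.09 to 0.49, *Ezh2* Y726D). *Tbx3* shares exonic bases with *Gm2301*. *Mga* was read at 1153 and 1934 in WT, 1924 and 1698 in *Ezh2* KO, against 1376 and 1095 in *Ezh1/2* dKO and 1779 and 1253 in *Ezh2* Y726D ESCs, with every mutant line overlapping WT. The 13 MGA partners of variant PRC1, among them *Max*, *L3mbtl2*, *E2f6* and *Pcgf6*, were all tested, and none was called in any of the 6 comparisons by limma, edgeR or DESeq2. Between 0 and 2 of them had an unadjusted p under 0.05 in a comparison.

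*Sox15* was read at 105 and 71.2 in WT, 72.1 and 50.3 in *Ezh2* KO, against 50.3 and 51.5 in *Ezh1/2* dKO and 78.5 and 156 in *Ezh2* Y726D ESCs, and it shares exonic bases with *Mpdu1*. *Sox13*, a SoxD factor, was read at 68.0 and 103 in WT, 85.7 and 146 in *Ezh2* KO, against 59.3 and 89.7 in *Ezh1/2* dKO and 82.0 and 162 in *Ezh2* Y726D ESCs. For both, the 2 libraries of *Ezh2* Y726D stood further apart than those of any other line. *Sox12*, a SoxC factor like *Sox4* and *Sox11*, was read at 85.4 and 73.2 in WT, 72.1 and 74.5 in *Ezh2* KO, against 72.5 and 53.3 in *Ezh1/2* dKO and 56.2 and 62.6 in *Ezh2* Y726D ESCs. *Sox4* was read at 12 and 32.7, 26.1 and 11.6, 32.1 and 24.0, and 51.7 and 23.5 in these lines, so *Sox4* and *Sox12* did not share the low value of *Sox11* in *Ezh2* KO. *Sox6*, a SoxD factor of cartilage and muscle, had 6.67 and 31.8 in WT, 39.7 and 13.5 in *Ezh2* KO, against 56.1 and 22.2 in *Ezh1/2* dKO and 38.3 and 1.12 in *Ezh2* Y726D ESCs. *Sox5* ranged from 0 to 15.4 over the 8 libraries. All 4 pairs of *Sox6* libraries were wide apart and its standard errors (1.25) allowed no call with all libraries.

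The 12 members under the mean of 5 were *Sox1*, *Sox3*, *Sox9*, *Sox10*, *Sox14*, *Sox18*, *Sox30*, *Tbx1*, *Tbx6*, *Tbx21*, *Tbx22* and *Tbr1*. Their reads summed over the 8 libraries ran from 3 (*Tbx1*) to 35 (*Sox18*). *Tbx1*, a regulator of pharyngeal development, had its reads in *Ezh2* Y726D alone (2 and 1), and *Sox1*, the neuroectoderm marker, had 1 and 1 in WT, none in *Ezh2* KO, 3 and 8 in *Ezh1/2* dKO and 3 and 1 in *Ezh2* Y726D ESCs. They were too shallow for the main test. With no filter on low values, limma called *Sox1* alone among them, from *Ezh2* KO to *Ezh1/2* dKO (2.41, adjusted p = 0.0917).

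Of the T-box relatives and targets listed for comparison, 6 of the 11 in the table were tested, and 1 rose in *Ezh1/2* dKO over WT: *Gata4*, a cardiac and endoderm factor, by 2.27 ± 0.55 (adjusted p = 0.0674, limma). edgeR called it too, and DESeq2 did not. None was called in *Ezh2* KO or *Ezh2* Y726D against WT by limma, edgeR or DESeq2, with 2 and 2 at an unadjusted p under 0.05. *T* was read at 12 and 11.6 in WT, 0 and 2.90 in *Ezh2* KO, against 11.5 and 11.5 in *Ezh1/2* dKO and 5.35 and 51.5 in *Ezh2* Y726D ESCs. Of 13 tested *Sox* relatives, partners and targets none was called against WT by limma or edgeR in any of the 3 lines (DESeq2 called 1 in *Ezh1/2* dKO, and 1 to 4 had an unadjusted p under 0.05). From *Ezh2* KO to *Ezh1/2* dKO, 3 rose: the POU partner *Pou3f1* (3.79), the neural progenitor filament gene *Nes* (2.13) and the cartilage gene *Acan* (2.06). edgeR called *Pou3f1* and *Acan* there, and DESeq2 *Pou3f1* and *Nes*. *Sox2*, the pluripotency member of the family, stayed between 567 and 724 in all libraries.

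Some markers of other cell types were also higher in *Ezh1/2* dKO and *Ezh2* Y726D ESCs. Primitive endoderm markers summed to 303 and 456 in WT, 258 and 616 in *Ezh2* KO, against 441 and 681 in *Ezh1/2* dKO and 301 and 813 in *Ezh2* Y726D ESCs, and 2 of the 5 tested (*Dab2* and *Gata4*) rose in *Ezh1/2* dKO by limma and edgeR, of which DESeq2 called *Dab2*. Trophectoderm markers summed to 436 and 344, 417 and 571, 646 and 903, and 585 and 1225, with *Krt8* and *Krt18* called higher than WT in *Ezh1/2* dKO and in *Ezh2* Y726D, and *Elf5* at 0 to 2.90. limma called neither *Cdx2* (0.84 in *Ezh1/2* dKO and 2.15 in *Ezh2* Y726D), *Eomes* (0.04 and 1.09) nor *Tfap2c* (0.10 and -0.65) against WT. *Cdx2* was read at 33.0 and 440 in the *Ezh2* Y726D libraries, so the higher sum of that line stood largely on 1 library. *Ezh2* KO also lay above WT for *Krt18* (1.10, adjusted p = 0.182, limma) and *Krt8* (1.09, adjusted p = 0.313, limma). Neither was called there by limma or edgeR, and DESeq2 called 1 trophectoderm marker. Mesoderm markers summed to 40.0 and 42.4, 16.7 and 23.2, 48.6 and 99.5, and 60.6 and 168, with none of 3 tested called against WT by limma or edgeR (1 by DESeq2 in *Ezh2* Y726D, and 0 to 1 at an unadjusted p under 0.05). Neural ectoderm markers summed to between 524 and 1326 in all libraries. Fibroblast markers summed to 12 and 4.81, 16.7 and 13.6, 98.1 and 115, and 88.3 and 86.1, with *Thy1*, the only one tested, called higher in *Ezh1/2* dKO and *Ezh2* Y726D, and *Col1a1* and *Col1a2* at 0 to 11.5. Fewer expressing cells and less RNA per cell cannot be told apart in bulk RNA, and the part of these markers in the T-box values was not tested.

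On chromatin, most members were PRC2 targets in WT ESCs. Promoters were taken as 5 kb on each side of any annotated TSS, and the SUZ12, H3K27me3 and H3K27ac peaks used had a p of at most 1e-10. *Sox1* had no match in the annotation, which left 27 members. SUZ12 peaks lay at 21 of the 27 in WT ESCs, against 17.2% of all 17424 matched genes, and H3K27me3 peaks at 19, against 22.0%. The 6 without SUZ12 were *Mga*, *Sox5*, *Sox12*, *Sox15*, *Tbx6* and *Tbx22*. *Sox3* and *Sox30* had SUZ12 without an H3K27me3 peak in WT. All 6 members called in expression had both marks in WT, as did 6 of the 10 that were tested and not called. With 1 library a list, none of these counts has a test, and no depth is known for any list, so a missing peak is no sign that the protein or mark was absent.

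In *Ezh2* KO ESCs SUZ12 peaks lay at 12 of the 27 members (all genes 4.86%), each of them bound in WT. They were kept at 57.1% of the 21 members bound in WT, against 28.3% of all genes bound in WT. The 9 that lost the peak held *Tbx3*, *Tbx4*, *Tbx5*, *Tbx15*, *Tbx20*, *Sox8*, *Sox10*, *Sox13* and *Sox30*. Of the T-box genes bound in WT, *Tbx1*, *Tbx18*, *Tbx21* and *Tbr1* kept it. H3K27me3 peaks lay at 20 of 27 in *Ezh2* KO (all genes 17.1%), including *Tbx4*, *Tbx5*, *Tbx15* and *Tbx20*, which had no SUZ12 peak there. H3K27me3 was found in *Ezh2* KO at 90.5% of the 21 members that SUZ12 bound in WT, against 80.7% of all such genes.

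The rank of *Sox11* in the lists varied by line. Its highest SUZ12 peak ranked 82 of 5404 by p in WT and 34 of 1578 in *Ezh2* KO, but 926 of 3231 in *Ezh2* R685C and 2859 of 3366 in *Ezh2* Y726D. Its H3K27me3 peak ranked 1030 of 16754 in WT, and its H3K27me3 peak in *Ezh2* KO ranked 181 of 8956, at −log10 p of 433. The WT and *Ezh2* KO SUZ12 summits lay 803 and 667 bases into the gene. In *Ezh1/2* dKO ESCs SUZ12 peaks remained at *Sox11* and *Tbx1*, 2 of the 27 (all genes 1.17%, genes bound in WT 6.79%), and H3K27me3 at *Sox11* alone (all genes 0.115%), at −log10 p of 12. *Sox11* was the only member with SUZ12 peaks in all 5 lines besides *Tbx1*. Its SUZ12 peaks in *Ezh1/2* dKO (−log10 p of 12.6) and *Ezh2* Y726D (10.8) do not pass a threshold of 1e-20, nor does its H3K27me3 peak in *Ezh1/2* dKO.

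In the lines with EZH2 point mutations most members kept SUZ12, with H3K27me3 in one line and not in the other. *Ezh2* Y726D ESCs had SUZ12 at 19 members (all genes 12.1%) and H3K27me3 at none (all genes 1.38%). *Ezh2* R685C ESCs had SUZ12 at 18 (all genes 9.79%) and H3K27me3 at 21 (all genes 28.1%). Of the 21 members bound in WT, 85.7% kept SUZ12 in *Ezh2* Y726D and 85.7% in *Ezh2* R685C, against 60.4% and 55.3% of all genes bound in WT. *Tbx3*, *Sox3* and *Sox30* lost the peak in *Ezh2* Y726D, and *Tbx3*, *Sox13* and *Sox30* in *Ezh2* R685C. *Sox5* gained a SUZ12 peak in *Ezh2* Y726D. At p of at most 1e-20, SUZ12 remained in *Ezh2* Y726D at 6 of the 19 members and at 459 of the 2117 genes of the whole list. HA-tagged EZH1 gave HA peaks at 20 of the 27 (all genes 13.1%), against 3 (all genes 3.63%) without the tag, which were *Sox8*, *Tbx3* and *Tbx6*.

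**Figure D3:**
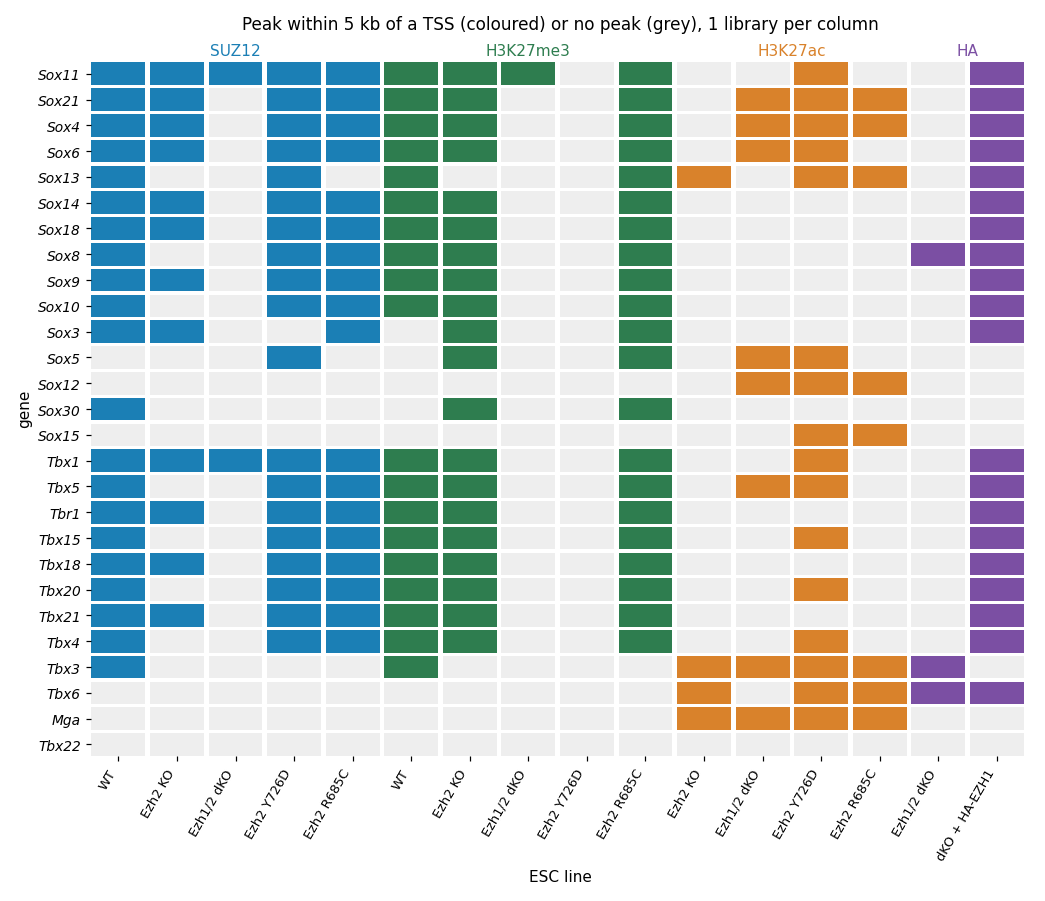
Presence of SUZ12, H3K27me3, H3K27ac and HA peaks (colour) within 5 kb of a TSS for the 27 members with a position (rows) in each ESC line (columns, 1 library each), *Sox* genes above T-box genes and each ordered by their number of peaks. H3K27me3 is empty in *Ezh2* Y726D and fills 21 rows in *Ezh2* R685C, while SUZ12 fills 19 and 18.

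H3K27ac was listed for the 4 mutant lines. It marked 4 members in *Ezh2* KO (all genes 49.0%), 8 in *Ezh1/2* dKO (all genes 37.1%), 16 in *Ezh2* Y726D (all genes 60.4%) and 8 in *Ezh2* R685C (all genes 59.1%). *Tbx3* and *Mga* carried it in all 4 lines. The strongest *Tbx3* peak ranked 62 of 25483 in *Ezh2* KO, 20 of 17618 in *Ezh1/2* dKO, 6 of 40829 in *Ezh2* Y726D and 32 of 41185 in *Ezh2* R685C, with summits from 224 bases before to 36 bases after a TSS. Among the 21 members bound by SUZ12 in WT, H3K27ac peaks lay at 9.52% in *Ezh2* KO (2 genes, all such genes 18.0%), 23.8% in *Ezh1/2* dKO (21.5%), 52.4% in *Ezh2* Y726D (49.9%) and 19.0% in *Ezh2* R685C (25.2%). The shares in *Ezh1/2* dKO and *Ezh2* Y726D were near the background of PRC2 target genes.

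H3K27ac of WT was not analysed here. The members with an H3K27ac peak in *Ezh2* Y726D and in none of the other mutant lines were *Tbx15*, *Tbx20*, *Tbx4*, *Tbx1* and *Sox11*. They are 5 of the 27, against 7.11% of all genes, and 5 of the 21 bound in WT, against 20.4% of all genes bound in WT. *Tbx5* carried the mark in *Ezh2* Y726D and *Ezh1/2* dKO. *Sox21* carried it in *Ezh1/2* dKO, *Ezh2* Y726D and *Ezh2* R685C. *Tbx15* and *Tbx20*, which rose in *Ezh1/2* dKO, had no H3K27ac peak there. The *Ezh1/2* dKO list was the shortest of the 4. *Sox8* had none in any mutant line. None of the 6 called members had H3K27ac in *Ezh2* KO, 2 had it in *Ezh1/2* dKO, 5 in *Ezh2* Y726D and 1 in *Ezh2* R685C. Of the 10 members tested and not called, 3, 6, 9 and 6 had it in the same lines.

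H3K27me2 covered most members in *Ezh2* KO, as it did other genes bound by SUZ12 in WT. This mark was listed as broad regions in the 4 lines with RNA-seq, and the share of the promoter window covered was used. The 27 members had a median of 0% covered in WT (all genes 17.2%) and 81.7% in *Ezh2* KO (all genes 1.30%), against 8.45% in *Ezh1/2* dKO (all genes 13.02%) and 14.5% in *Ezh2* Y726D (all genes 14.7%). Genes bound by SUZ12 in WT had medians of 9.66%, 69.8%, 17.2% and 22.9% in the same lines. Of the 21 bound members, 15 had no H3K27me2 in WT, and in *Ezh2* KO 7 were covered over the whole window: *Sox8*, *Sox9*, *Sox10*, *Sox11*, *Sox14*, *Tbx5* and *Tbx20*. *Tbx3* alone among the bound had none in *Ezh2* KO, and *Mga*, *Sox12*, *Sox15* and *Tbx6*, which were not bound, had none either. *Sox13*, which lost both SUZ12 and H3K27me3 in *Ezh2* KO, was covered at 74.4% in WT and 29.6% in *Ezh2* KO. The lists differ in length from 194708 regions (*Ezh2* KO) to 478485 (*Ezh1/2* dKO), and the WT list holds no region on chromosome 8 or Y. Among members the median of the strongest −log10 p was 4.41 in *Ezh2* KO, against 0 in WT, 1.18 in *Ezh1/2* dKO and 1.41 in *Ezh2* Y726D. Over all genes this median was 1.19 in *Ezh2* KO, 1.56 in WT, 1.42 in *Ezh1/2* dKO and 1.47 in *Ezh2* Y726D. Regions this weak in *Ezh1/2* dKO and *Ezh2* Y726D are no sign that the mark remained there.

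**Figure D4:**
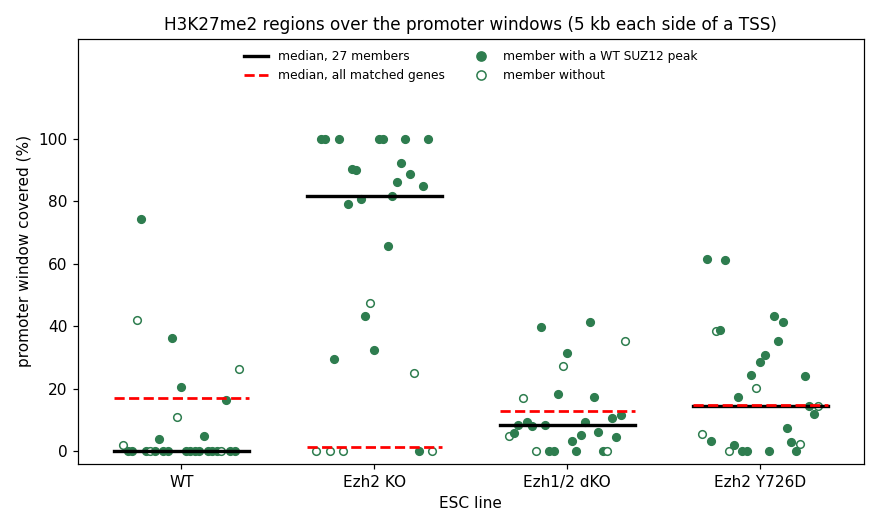
Percent of the promoter window covered by H3K27me2 regions (y axis) for each of the 27 members in 4 ESC lines (x axis, 1 library each), filled for members with a SUZ12 peak in WT, with the median of the members (black) and of all matched genes (red, dashed). The bound members lie at a median of 0% in WT and 88.8% in *Ezh2* KO, where all matched genes have a median of 1.30%.

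Accessible regions from ATAC-seq covered a similar share of the members' windows in all 4 lines: medians of 43.5% in WT and 37.6% in *Ezh2* KO, against 37.7% in *Ezh1/2* dKO and 41.4% in *Ezh2* Y726D, beside 39.3%, 35.5%, 40.1% and 39.2% over all genes. These ATAC-seq lists held 752009 to 798238 weak regions, with a median strongest −log10 p among members of 1.89 to 2.03. Similar shares are therefore no measure of equal accessibility. H3K27me1 regions were listed on 21 chromosomes in WT and 19 in *Ezh2* KO, against 16 in *Ezh1/2* dKO and 9 in *Ezh2* Y726D. For the 21 members on chromosomes listed in all 4, the median share covered was 0% in WT and 9.22% in *Ezh2* KO, against 3.39% in *Ezh1/2* dKO and 16.9% in *Ezh2* Y726D. On the chromosomes each line listed, all genes had medians of 21.1%, 5.65%, 8.55% and 16.9% in the same order. Genes bound by SUZ12 in WT had 0%, 36.3%, 13.3% and 26.0%. The H3K27me1 regions were weak too: among members on each line's chromosomes the median of the strongest −log10 p was 0 in WT and 1.45 to 1.51 in the mutant lines. Differences between lines in this mark were not tested.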

How the data were processed

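RNA-seq (SMART-seq2) and ChIP-seq or ATAC-seq of mouse ESCs were used. For RNA-seq the authors aligned reads to mm9 by TopHat and dropped duplicates (PICARD). HTSeq-count, run without strand on RefSeq genes, gave the counts, which DESeq2 size factors then scaled. Each deposited value is thus a normalized count, a signal rather than whole reads. All values (100%) were whole multiples of 1 read within 0.01 reads, and these reads were recovered for count tests. For ChIP-seq and ATAC-seq the authors aligned unique reads with Bowtie and called peaks with MACS2, and the deposited lists give a −log10 p for each peak (HA lists give positions only). The Reporting Summary gives a p of 1e-10 and the methods another value, and every SUZ12, H3K27me3 and H3K27ac peak used had a p of at most 1e-10. Files of the authors' own comparisons with WT (mean counts, DESeq2 fold changes and p-values) were not used.

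The main test was limma 3.58.1 in R 4.3.3 (trend, all 8 libraries fitted together, values as log2 after adding 1, genes with a mean of at least 5), checked on simulated data. edgeR 4.0.16, DESeq2 1.42.0 and other settings were alternatives. Peaks were matched to GENCODE genes of mm9 with Python 3.11.15, numpy 2.4.6 and pandas 2.3.3 (16570 genes by symbol, 854 by RefSeq synonym, 631 unmatched) with at least 1 bp of overlap. RNA-seq depth was 3604123 to 5181553 reads, and the depth of the peak lists is not known. The fits did not treat equal replicate numbers as a pairing. The members and lists were chosen with earlier results of these data known. By rule, every member was named, with values of every library for members called in any of the 6 comparisons and the 8 others with the highest mean. The counts beside H3K27ac in 1 mutant line only, the ranks of *Sox11* and *Tbx3* peaks, and *Tbx4*, *Tbx1*, *Sox1* and *T* were picked after their values were seen. RING1B, H2AK119ub, WT H3K27ac and the EZH2 rescue lines were not analysed here.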

Additional observations from a re-analysis of the deposited data

Results flagged for a closer look

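Effects of 2 mutant lines differed by a direct test for 3 members. *Sox11* differed between *Ezh1/2* dKO and *Ezh2* KO ESCs by 2.96 on the log2 scale and between *Ezh2* Y726D and *Ezh2* KO ESCs by 3.22, higher in 2 of 2 libraries in each case. *Sox8* differed between *Ezh2* Y726D and *Ezh2* KO ESCs by 3.07, on 1 read in *Ezh2* KO, and it passed the filter on low values only through the lines in which it was high. *Sox21* differed between *Ezh2* Y726D and *Ezh1/2* dKO ESCs by -1.81, lower in 2 of 2 libraries.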

How the results depend on the processing

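Members called were counted again under each alternative, and the cause of each change was not tested unless the setting itself shows it. *Ezh2* KO against WT gave 0 members in all but the unadjusted p under 0.05 (2) and DESeq2 (1), and 0 to 1 with single libraries left out. *Ezh1/2* dKO against WT gave 2 at an adjusted p under 0.05, with no filter, with a mean of at least 20 and with quantile normalization, and 0 to 4 without single libraries. *Ezh2* Y726D against WT gave 3 at the unadjusted p, 2 with DESeq2, 0 on the 4 compared libraries and 1 to 2 without single libraries. *Ezh1/2* dKO against *Ezh2* KO gave 5 at the unadjusted p, 2 without a filter or with edgeR, 3 with DESeq2, 6 on the 4 libraries and 0 to 3 without single libraries. *Ezh2* Y726D against *Ezh1/2* dKO gave 0 at an adjusted p under 0.05 and on the 4 libraries, 2 at the unadjusted p and 0 to 3 without single libraries. *Ezh2* Y726D against *Ezh2* KO gave 1 at an adjusted p under 0.05, with a mean of at least 20, with quantile normalization and on the 4 libraries, 4 at the unadjusted p and 0 to 5 without single libraries. With the replicate number as a block, *Ezh1/2* dKO against WT gave 3, *Ezh2* Y726D against *Ezh1/2* dKO 0 and against *Ezh2* KO 1, which ended the calls of *Tbx20* (adjusted p = 0.121, limma), *Sox21* (0.101) and *Sox8* (0.111), and no other count changed. The numbers share no stated source: same-numbered libraries deviated with correlations of 0.22 to 0.29 among the mutant lines and of -0.41 to -0.07 between WT and these. For the 9 calls and 4 near misses named, 202 repeats kept their side of the threshold, 44 lost the call, 10 gained it and none turned direction. A lone library left in a line was assumed to vary like the others.

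At p of at most 1e-20, SUZ12 remained at 1 member in *Ezh1/2* dKO and 6 in *Ezh2* Y726D, H3K27me3 at 0 in *Ezh1/2* dKO, and H3K27ac at 2 in *Ezh2* KO, 2 in *Ezh1/2* dKO, 7 in *Ezh2* Y726D and 3 in *Ezh2* R685C. Within 1 kb of a TSS, H3K27ac lay at 5 members in *Ezh2* R685C and HA peaks of *Ezh1/2* dKO without the tag at 1 member instead of 3. All other counts of peaks, including those with at least 200 bp covered, stayed within 1.5 times.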
